A study of Mus musculus with 12 samples.

Results

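The Wnt module examined here holds 42 genes, chosen by name and role with no threshold on their values: 19 Wnt ligands, 12 receptors (the 10 Frizzleds and the co-receptors Lrp5 and Lrp6), 9 secreted modulators (3 Dickkopf, 3 Sfrp and 3 R-spondin genes) and 2 intracellular genes, Axin2 and Lef1. The choice was made with earlier results of these data known. All 42 were found on the arrays, through 50 probes, among 19747 genes that could be named. Of these, 41 were bright enough to test, among 22573 genes or unnamed transcripts tested in all. Wnt2b was not well above background on any of the 12 arrays and was not tested.

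RNA came from whole female mouse embryos at embryonic day 9.5, taken out of their yolk sacs, with 4 biological replicates per genotype by the labels. Wild-type embryos were Chd7+/+, heterozygotes Chd7Whi/+ and homozygotes Chd7Whi/Whi. Chd7 encodes a chromatin remodeller that is mutated in CHARGE syndrome, and Whi is the whirligig allele, carried by every cell of the embryo and not restricted to a tissue. All animals were on a mixed C3HeB/FeJ background, and the embryos came from matings of heterozygotes. The study asked which genes depend on functional Chd7 while neural crest cells migrate. Each sample was hybridised to a 1-colour array, and replicates are numbered in accession order, which pairs nothing.

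Wnt proteins are secreted, lipid-modified signals. They bind a Frizzled receptor together with Lrp5 or Lrp6, which stops the breakdown of beta-catenin, and beta-catenin then works with Lef1 and related factors to switch on target genes such as Axin2. Dickkopf proteins act on the co-receptors, and Sfrp proteins bind Wnts outside the cell. R-spondins strengthen the signal by keeping Frizzleds at the cell surface, which can go through Lgr receptors. In the midgestation embryo the pathway is known for its part in tail bud growth, neural tube patterning, neural crest induction and limb outgrowth.

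A value below is the log2 of a probe's signal minus the log2 of the 75th percentile of its array, so 0 is that percentile and a difference of 1 is a 2-fold difference. Because each probe has its own brightness, levels are compared between arrays and never between genes. The 75th percentile lay between 1115 and 1746 intensity units, and 69.3% to 75.7% of probes were well above background. Arrays lay on 3 slides, each with all genotypes, but position 1 of a slide held wild-type arrays only. Pairs of arrays of the same genotype correlated at 0.985 to 0.990, and pairs of different genotype at 0.983 to 0.991. No probe was tied to Chd7, so the mutated gene's own level is not analysed here.

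Heterozygous replicate 1 stood apart by its tissue markers. The summed linear signal of 7 heart genes was 5.56 there and 107.7 to 181.1 on the other 11 arrays, although the sample is labelled as a whole embryo. Its summed signal of tail bud and presomitic mesoderm genes was 8.58, against 1.45 to 2.69 elsewhere. Sums of yolk sac genes ran from 6.14 to 32.7 in wild type, 13.8 to 31.3 in heterozygotes and 4.32 to 76.4 in homozygotes, the highest on homozygous replicate 1, and none of those 9 genes passed the test in any comparison. Of 5 trophoblast and decidua markers, Tpbpa and Prl8a2 did not rise above background on a single array. The other 3, Prl3d1, Gcm1 and Ascl2, were above background on all 12 arrays.

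Homozygous embryos differed from wild type in 1 of the 41 tested members. Rspo2, an R-spondin needed for limb and craniofacial growth, fell 3.27-fold. With limma, 309 of the 22573 genes tested passed an adjusted p of 0.05 (109 higher, 200 lower), which is 1.37% in either direction and 0.886% in the lower one, against 2.44% of the members. Rspo2 and 12 members that did not pass had an unadjusted p under 0.05, 13 of 41 or 31.7%, against 16.9% of all genes. In 9 of 41, Rspo2 among them, the 4 homozygous arrays did not overlap the 4 wild-type arrays, or 22.0%, against 14.1% of all genes. Of the 9, Wnt3, Wnt5a, Fzd1, Fzd3, Fzd10, Rspo2 and Rspo3 lay lower in homozygotes (8.49% of all genes did so) and Wnt8a and Fzd2 higher (5.63%). Values were lower in 24 members and higher in 17, with a median log2 difference of -0.05, against 0.01 over all genes. After another background correction 30 of 41 were lower, with a median of -0.12 against -0.10 over all genes.

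**Figure D1:**
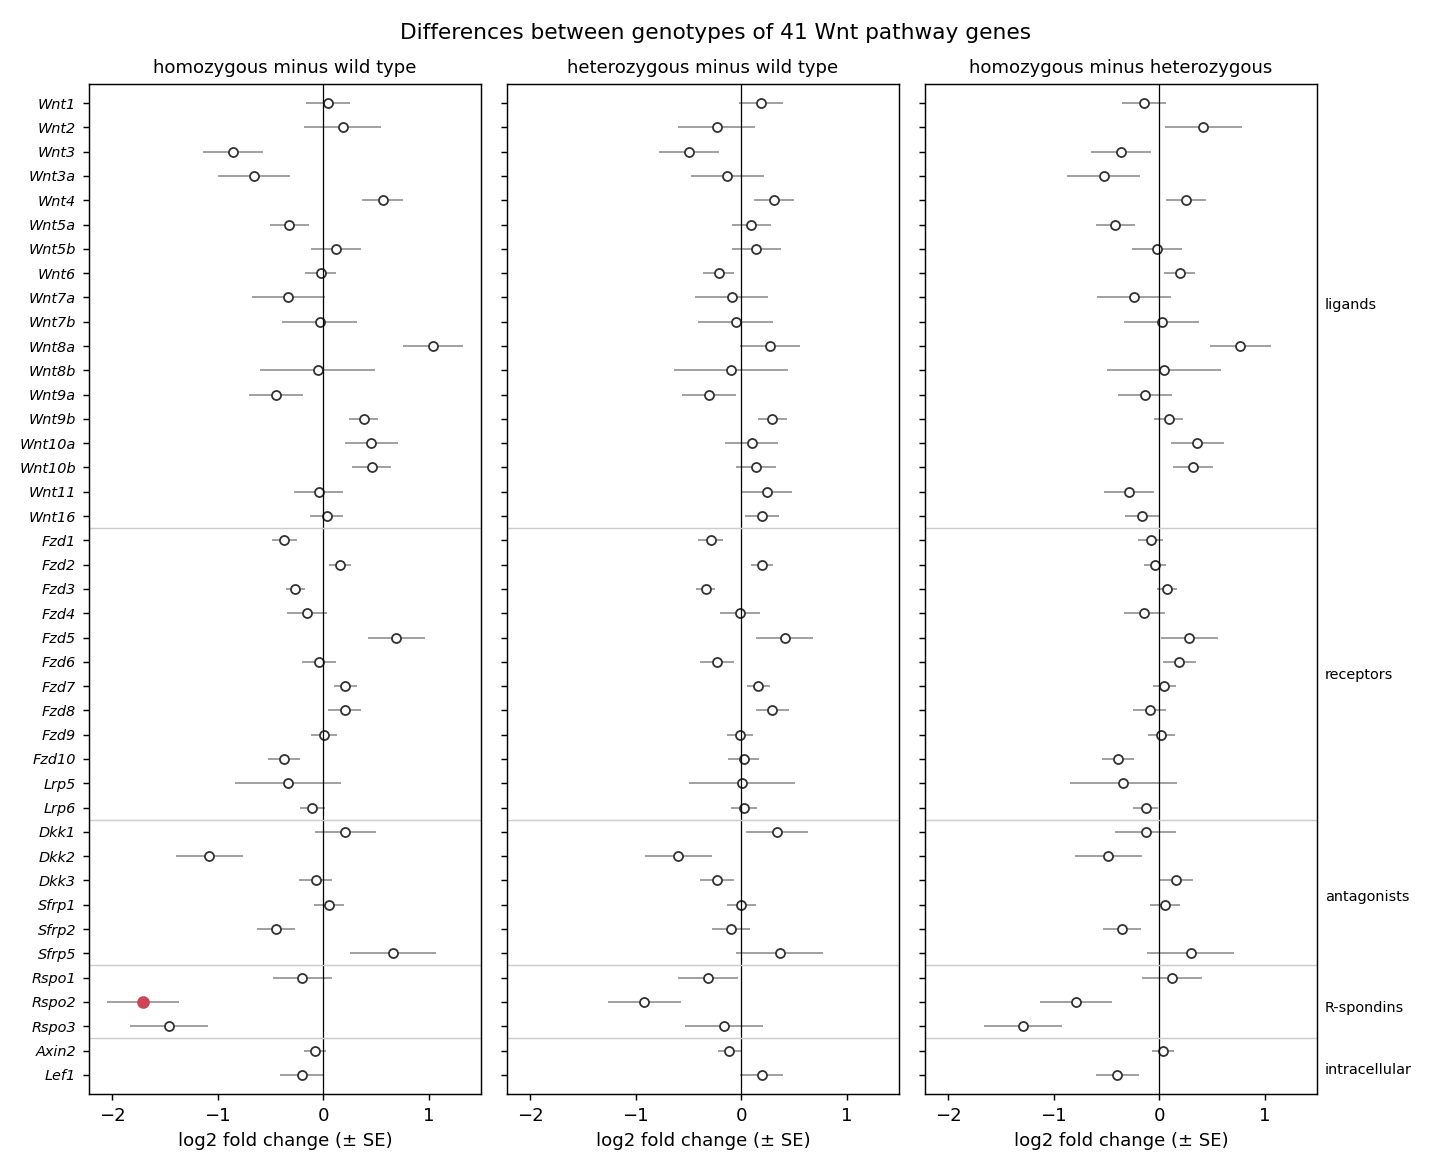
Log2 fold change of each tested Wnt module gene (points, grouped by role) with the standard error of the fit (bars), for homozygous minus wild type, heterozygous minus wild type and homozygous minus heterozygous, 4 arrays per genotype. Filled red marks an adjusted p under 0.05, which Rspo2 alone reached, at -1.71 in homozygous minus wild type; open points did not pass.

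Of the 3 R-spondins, Rspo2 and Rspo3 had the lowest log2 differences of the 41 members, and Rspo1 did not. Rspo2 signal was -1.70, -2.36, -2.33 and -1.91 on wild-type replicates 1 to 4. Heterozygous replicates 1 to 4 read -2.63, -2.39, -3.71 and -3.24. Homozygous replicates read -4.61, -3.99, -3.40 and -3.14. Every homozygous array lay below every wild-type array, and every heterozygous array did too, the closest being -2.39 against -2.36. Heterozygous and homozygous arrays overlapped. The means were -2.08 ± 0.32 in wild type, -2.99 ± 0.60 in heterozygotes and -3.78 ± 0.65 in homozygotes (SD, n = 4 arrays each). Rspo2 fell by 1.71 ± 0.34 (SE) on the log2 scale from wild type to homozygote (limma, adjusted p = 0.0354). In a whole embryo, fewer cells that express Rspo2 and less Rspo2 RNA per cell cannot be told apart.

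Relative to the wild-type geometric mean, the 4 homozygous arrays held 17.3%, 26.5%, 40.0% and 47.8% of the linear Rspo2 signal. Within the 3 slides the homozygous minus wild-type difference was -2.90, -1.65 and -1.36, and with slide as a block it was -1.87 (adjusted p = 0.0250). The call of Rspo2 ended when any 1 of 7 arrays was left out, namely each wild-type array and homozygous replicates 1, 2 and 3, with adjusted p-values of 0.0564 to 0.118 and differences of -1.43 to -1.84. It also ended with no filter on dim probes (limma, adjusted p = 0.0709). With array position as a block the difference was -1.67. That fit compares wild-type replicate 3 alone with homozygous arrays, since the other wild-type arrays share no position with another genotype.

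Rspo3, an R-spondin known for its part in vascular and placental development, was the module's next smallest p. Wild-type arrays read -0.31, -0.93, -0.92 and -0.67, heterozygous arrays 0.45, -0.90, -1.29 and -1.76, and homozygous arrays -2.18, -2.38, -2.24 and -1.87. All homozygous values lay below all others, whereas the heterozygous arrays spread from above the highest wild type to near the homozygotes. The difference from wild type was -1.46 ± 0.37 and did not pass (limma, adjusted p = 0.0862). It was -1.87, -1.45 and -1.38 within the 3 slides. The heterozygous array at 0.45 is replicate 1, the one with the high tail bud sum. Without that array the homozygous minus wild-type difference of Rspo3 passed, at -1.46 (adjusted p = 0.00629). It passed likewise without heterozygous replicate 4 (adjusted p = 0.0450) and in a fit of the 2 genotypes alone (adjusted p = 0.00571). In these 3 fits only heterozygous arrays were dropped, so the difference stayed at -1.46 and only the estimated spread changed. Rspo3 did not pass under the other 22 of 25 alternatives. Leaving out any of the other 10 arrays gave limma adjusted p-values of 0.0918 to 0.229, and normexp background correction gave 0.131.

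Rspo1, the remaining R-spondin on the list and a factor in ovary development, had overlapping values in all genotypes. Wild type read 1.24, 0.73, 0.99 and 0.69. Heterozygotes read 0.99, 1.17, 0.21 and 0.01, and homozygotes 0.09, 0.80, 0.83 and 1.14. The homozygous minus wild-type difference was -0.20 ± 0.28 (limma, adjusted p = 0.749), and within slides it was -1.15, -0.06 and 0.30.

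**Figure D2:**
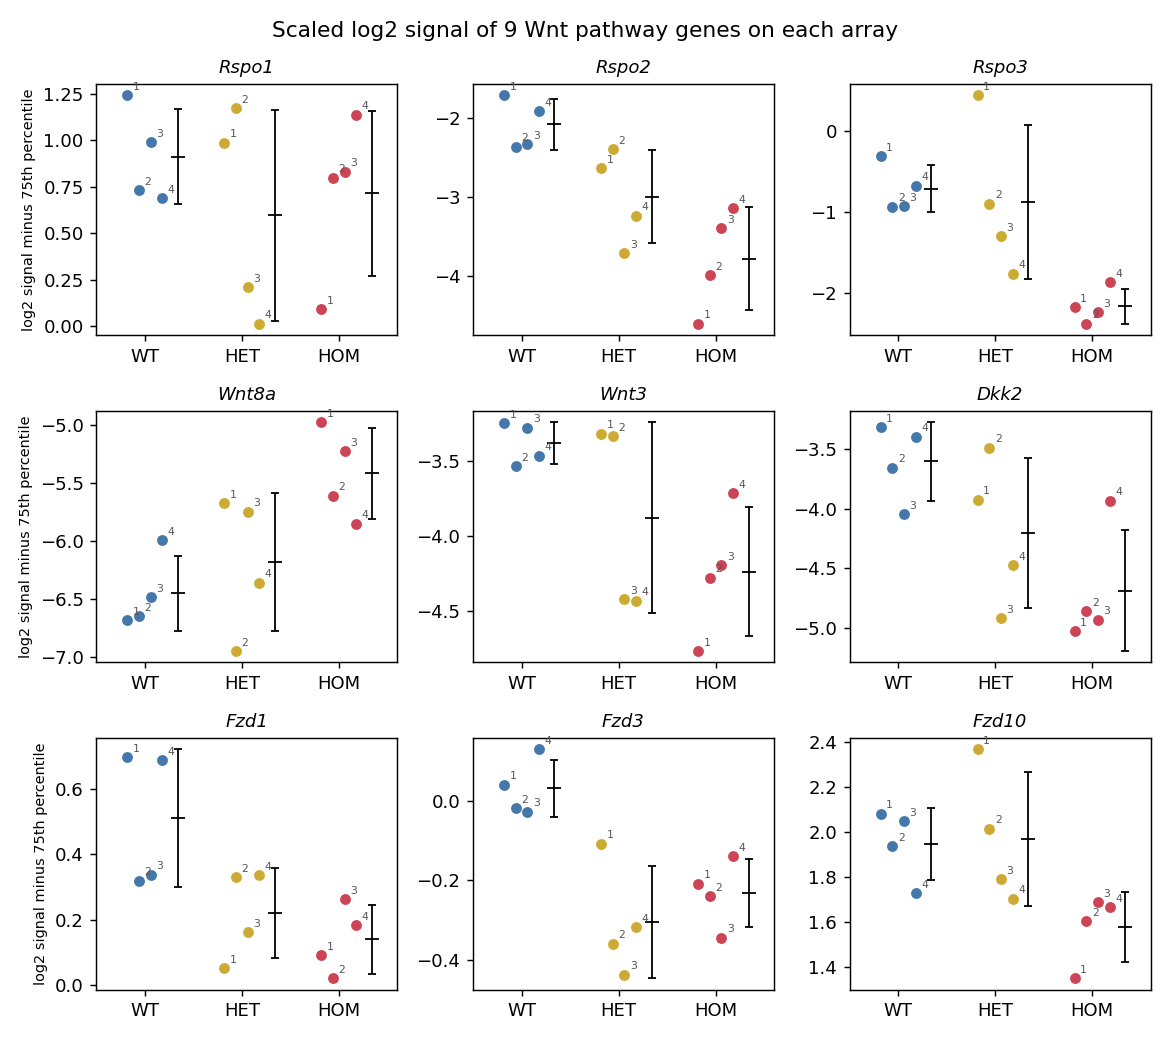
Scaled log2 signal of 9 Wnt module genes on each array; numbers beside the points are replicates, and the black bars are the mean ± SD of 4 arrays. WT, HET and HOM stand for wild type, heterozygous and homozygous, and each panel has its own vertical scale. For Rspo2 the heterozygous mean of -2.99 lies between -2.08 in wild type and -3.78 in homozygotes, and for Rspo3 the 4 homozygous arrays, -2.38 to -1.87, lie below all others.

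Of 5 limb bud mesenchyme markers listed, 4 were tested, and 2 fell in homozygotes as Rspo2 did: Fgf10, the signal that starts limb outgrowth, by 1.36 ± 0.15 on the log2 scale (limma, adjusted p = 0.00120) and Prrx1, a homeobox factor of limb and craniofacial mesenchyme, by 1.83 ± 0.30 (adjusted p = 0.0133). Tbx5, which marks the forelimb field, had a difference of 0.44 ± 0.24 (adjusted p = 0.370), and Hand2, a factor of posterior limb and heart, -0.79 ± 0.21 (adjusted p = 0.106). This list, like the other marker lists, was chosen with earlier results of these data known. The summed linear signal of the list was 2.63 to 3.20 in wild type, 1.60 to 2.87 in heterozygotes and 1.61 to 2.22 in homozygotes. Heterozygous replicates 1 to 4 read -0.03, 0.31, -0.91 and -1.21 for Prrx1, so replicates 3 and 4 were the lower arrays for Prrx1 as they were for Rspo2, Wnt3, Dkk2, Rspo1 and Rspo3. Hand2 shared that order, with -0.83 on replicate 3 and -1.07 on replicate 4, although replicate 1 (-0.81) was close to replicate 3. Fgf10 and Tbx5 did not share it: Fgf10 was highest on replicate 4 (-3.04) and Tbx5 on replicate 3 (-0.23). Among the members, replicates 3 and 4 were also the lower heterozygous arrays for Wnt3a, Wnt5a, Wnt5b, Wnt6, Wnt7a, Wnt9a, Fzd10 and Axin2. They were the higher ones for Wnt2, Wnt11, Wnt16, Fzd2, Fzd4, Fzd5, Fzd7, Fzd8, Lrp6 and Sfrp5. The rest of the tested members had neither order. Such orders were not counted over all genes. Replicates 3 and 4 share the number 53 in their titles, a number whose meaning the labels do not give. The part of limb tissue in the Rspo2 result was not tested.

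**Figure D3:**
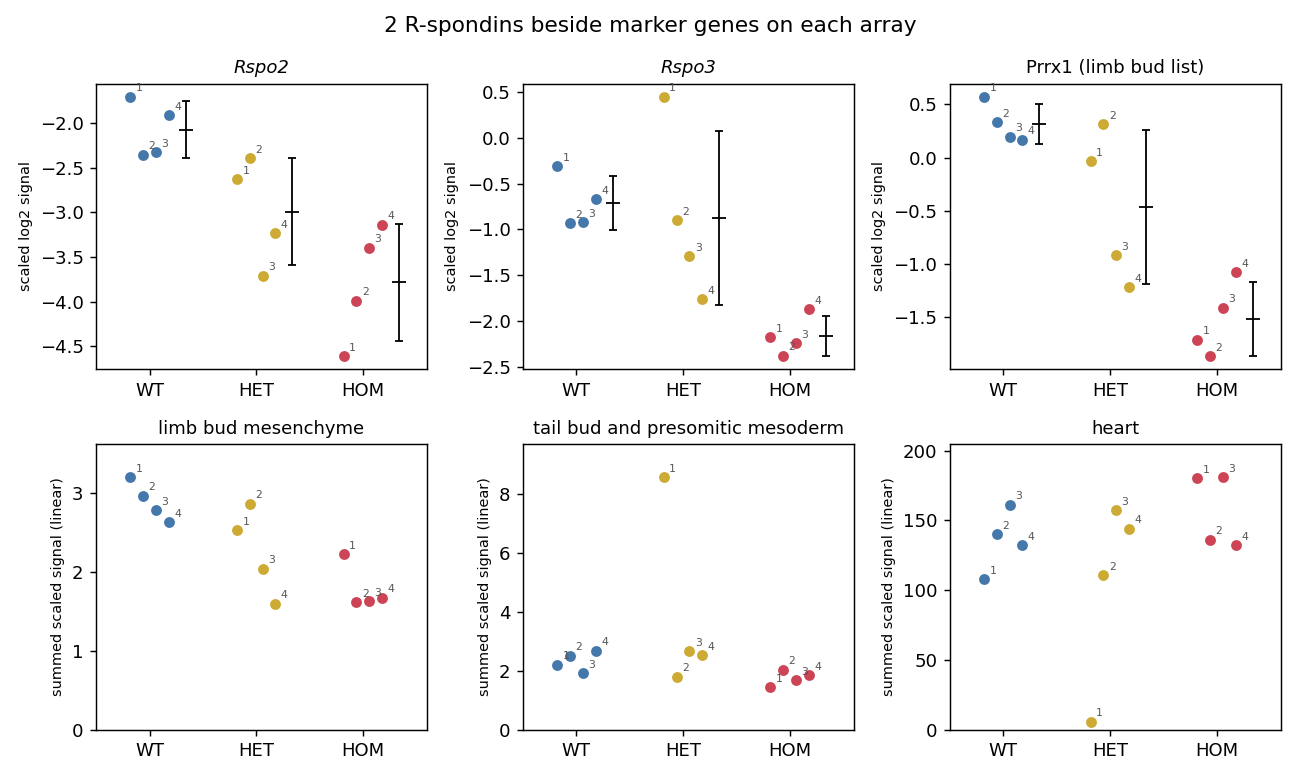
Rspo2, Rspo3 and the limb bud gene Prrx1 on each array (top row, scaled log2 signal, black bars mean ± SD of 4 arrays) and the summed linear signal of 3 marker lists (bottom row); numbers are replicates, and WT, HET and HOM are the genotypes. Heterozygous replicate 1 has the highest tail bud sum (8.58) and the lowest heart sum (5.56), and the limb bud sums of homozygotes, 1.61 to 2.22, lie below those of wild type, 2.63 to 3.20.

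None of the 6 secreted antagonists passed the test, and 3 were lower and 3 higher in value in homozygotes. Dkk2, a Dickkopf protein that can dampen or mildly raise signalling depending on the receptor context, had the largest difference. It read -3.32, -3.66, -4.05 and -3.40 in wild type, -3.93, -3.49, -4.92 and -4.48 in heterozygotes and -5.02, -4.86, -4.93 and -3.94 in homozygotes. Homozygous replicate 4, at -3.94, lay inside the wild-type range and the other 3 below it, and the difference was -1.08 ± 0.32 (limma, adjusted p = 0.135). Dkk1, the head inducer that blocks Lrp6, differed by 0.21 ± 0.29. Its heterozygous values spread from -2.36 to -0.72, the highest on replicate 1. Dkk3, a divergent family member, differed by -0.07 ± 0.16.

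Among the Sfrp genes, Sfrp2 had -0.45 ± 0.18 (limma, adjusted p = 0.247) with overlapping arrays, and Sfrp1 had 0.05 ± 0.14. Sfrp5, which is expressed in foregut endoderm, differed by 0.66 ± 0.41 (adjusted p = 0.432). Homozygous replicates 1 and 2 carried the high Sfrp5 values, 1.73 and 1.12, with 0.02 and 0.44 on the other 2, and they were also the arrays with the highest yolk sac sums, 76.4 and 36.1. In wild type and in homozygotes the 4 arrays ranked alike for Sfrp5 and for the yolk sac sum. Wild-type replicate 2 was highest in both (0.71 and 32.7) and replicate 4 lowest (-0.50 and 6.14). In heterozygotes replicate 1 was lowest in both. Heterozygous replicate 3, however, read 1.25 for Sfrp5 with a sum of 20.1, and replicate 4 read 0.87 with a sum of 31.3. The part of yolk sac tissue in the Sfrp5 values was not tested.

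Of the 18 tested ligands, none passed in homozygotes against wild type. Values were higher in 9 and lower in 9, with a median log2 difference of 0.00. An unadjusted p under 0.05 was found for 5, or 27.8%, against 16.9% of all genes. Wnt8a, a ligand of the early caudal embryo, had the smallest p of the ligands. It read -6.69, -6.65, -6.49 and -5.99 in wild type, -5.68, -6.95, -5.75 and -6.36 in heterozygotes and -4.98, -5.61, -5.23 and -5.86 in homozygotes. All homozygous arrays lay above all wild-type arrays, by 1.04 ± 0.29 in the means (limma, adjusted p = 0.112). The probe was dim: it was well above background on 3 wild-type, 2 heterozygous and 4 homozygous arrays, and after another background correction the difference was -0.093 (adjusted p = 0.903).

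Wnt3, which the posterior epiblast and apical ectoderm use, read -3.25, -3.53, -3.28 and -3.47 in wild type. Heterozygotes read -3.32, -3.34, -4.42 and -4.43, so that replicates 1 and 2 sat with the wild type and replicates 3 and 4 with the homozygotes, which read -4.77, -4.28, -4.19 and -3.71. The homozygous minus wild-type difference was -0.86 ± 0.29 (limma, adjusted p = 0.182). Wnt3a, the tail bud ligand, had -0.66 ± 0.34 (adjusted p = 0.357), with its lowest value, -6.40, on homozygous replicate 1. Wnt5a, a ligand of outgrowing buds that acts largely without beta-catenin, had non-overlapping arrays for a small difference: 0.46 to 0.68 in wild type and 0.08 to 0.30 in homozygotes, or -0.32 ± 0.19 (adjusted p = 0.397).

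Wnt4, Wnt9b, Wnt10a and Wnt10b had higher values in homozygotes without passing. For 3 of these 4 the sign turned under 1 alternative. With normexp background correction Wnt10b stood at -0.16. With array position as a block Wnt4 stood at -0.03 and Wnt9b at -0.02, but that fit rests on wild-type replicate 3 alone. Wnt4, a ligand of kidney and gonad formation, had a difference of 0.56 ± 0.19 (limma, adjusted p = 0.189), and Wnt9b, which acts before it in the kidney, 0.38 ± 0.14 (adjusted p = 0.216). Wnt10b had 0.46 ± 0.19 and Wnt10a 0.46 ± 0.25. Wnt1, the ligand of the midbrain and dorsal neural tube, had 0.04 ± 0.21, and Wnt6, a surface ectoderm ligand linked to neural crest induction, had -0.03 ± 0.15. The 6 genes of the midbrain and hindbrain boundary list, summed, read 1.59 to 2.77 in wild type and 2.21 to 3.16 in homozygotes, and none of them passed. Differences of Wnt2, Wnt5b, Wnt7a, Wnt7b, Wnt8b, Wnt9a, Wnt11 and Wnt16 ran from -0.45 (Wnt9a) to 0.18 (Wnt2). The SD among homozygotes reached 1.39 for Wnt8b, a forebrain ligand, where replicate 1 read -4.22 and the others -1.23, -2.26 and -1.30.

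Several ligand genes are direct neighbours among protein-coding genes in RefSeq's mouse annotation, and the pairs did not share a direction throughout. On chromosome 11, Wnt3 had -0.86 and Wnt9b beside it 0.38, while Wnt3a and Wnt9a had -0.66 and -0.45. On chromosome 15, Wnt1 had 0.04 and Wnt10b 0.46, and on chromosome 1, Wnt6 had -0.03 and Wnt10a 0.46. None of these 8 genes passed the test, and the differences within pairs were not tested.

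The 12 receptors did not pass either, with 5 higher and 7 lower in value, a median of -0.07, and differences from -0.37 to 0.69. Fzd1 read 0.70, 0.32, 0.34 and 0.69 in wild type, 0.05, 0.33, 0.16 and 0.34 in heterozygotes and 0.09, 0.02, 0.26 and 0.18 in homozygotes. The homozygous arrays lay below the wild-type arrays, with a log2 difference of -0.37 ± 0.12 (limma, adjusted p = 0.162). Fzd3, a receptor of axon guidance and planar polarity, read 0.04, -0.02, -0.03 and 0.13 in wild type. It read -0.11, -0.36, -0.44 and -0.32 in heterozygotes and -0.21, -0.24, -0.35 and -0.14 in homozygotes. All 8 mutant arrays lay below all wild-type arrays, with a log2 difference of -0.34 ± 0.09 in heterozygotes (adjusted p = 0.242) and -0.27 ± 0.09 in homozygotes (limma, adjusted p = 0.195). In each slide the Fzd3 differences had the same sign, -0.25, -0.22 and -0.37 in homozygotes and -0.28, -0.42 and -0.45 in heterozygotes.

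Fzd10, a receptor of the dorsal neural tube, read 2.08, 1.94, 2.05 and 1.73 in wild type, 2.37, 2.01, 1.79 and 1.70 in heterozygotes and 1.35, 1.60, 1.69 and 1.67 in homozygotes. The homozygotes lay below both other genotypes without overlap, with a difference of -0.37 ± 0.15 from wild type (limma, adjusted p = 0.245). Of 8 dorsal neural tube and roof plate genes 1 fell in homozygotes, Zic1, a zinc-finger factor, by 1.54 ± 0.26 (adjusted p = 0.0186; 3 wild-type arrays, since 1 spot was left out as an outlier). Of the 8 genes, 4 were lower in value and the rest higher, with a median log2 difference of 0.00. Bmp6 lay higher without overlap, at 0.88 ± 0.20 (limma, adjusted p = 0.0644). The list's sums were 4.30 to 13.7 in wild type, the lowest being the array without the Zic1 spot, and 6.71 to 8.74 in homozygotes. Zic1 had the brightest probe of the list in wild type, so the sums lean on it. The part of dorsal neural tissue in the Fzd10 values was not tested.

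Fzd5, an eye and endoderm receptor, had the largest receptor difference, 0.69 ± 0.27 (limma, adjusted p = 0.237), with overlapping arrays from -5.49 to -4.10 in wild type and from -4.34 to -3.86 in homozygotes. Fzd2 arrays did not overlap, at 2.84 to 2.95 in wild type and 2.97 to 3.09 in homozygotes, a difference of 0.16 ± 0.10 (adjusted p = 0.452). Fzd4, Fzd6, Fzd7, Fzd8 and Fzd9 had differences between -0.16 and 0.21. The co-receptor Lrp6 differed by -0.11 ± 0.12. Its relative Lrp5 spread widely within every genotype, from 0.13 to 1.98 in wild type and from -0.19 to 1.82 in homozygotes, and its difference was -0.34 ± 0.50.

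The intracellular members showed small differences that did not pass. Axin2, the feedback inhibitor used as a readout of beta-catenin signalling, was 0.31 ± 0.07 in wild type, 0.19 ± 0.18 in heterozygotes and 0.23 ± 0.13 in homozygotes (SD, n = 4), a homozygous minus wild-type log2 difference of -0.08 ± 0.11 (limma, adjusted p = 0.742). Lef1, the DNA-binding partner of beta-catenin, differed by -0.21 ± 0.20 (adjusted p = 0.635). Its heterozygous replicate 1 read 0.32, and the other 11 arrays read -0.96 to -0.50.

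In heterozygotes against wild type, none of the 41 members passed with limma, and 2 of all 22573 genes did (0.00886%). Unadjusted p was under 0.05 for 3 members, or 7.32%, against 15.3% of all genes. The 3 were Fzd3, Rspo2, whose difference was -0.92 ± 0.34 (adjusted p = 0.271), and Fzd1, at -0.29 ± 0.12 (adjusted p = 0.291). For Fzd3 and Rspo2 the heterozygous arrays did not overlap the wild type, which 6.70% of all genes showed. Heterozygous minus wild-type differences of Rspo2 were -0.81, -1.37 and -1.32 within the 3 slides. Without heterozygous replicate 1 the difference of Rspo2 was -1.04 and that of Rspo3 -0.61, against -0.17 with it. The heterozygous mean lay between those of the other genotypes for 18 of 41 members (43.9%), near the 41.5% of all genes.

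Homozygotes against heterozygotes likewise gave no member past the threshold with limma, where 3 of all genes passed (0.0133%). Unadjusted p was under 0.05 for 5 members, or 12.2%, against 6.03% of all genes, and arrays did not overlap for 2, Rspo3 and Fzd10, against 2.99% of all genes. Rspo3 differed by -1.29 ± 0.37 (adjusted p = 0.557), and by -0.85 when heterozygous replicate 1 was left out. Wnt8a differed by 0.77 ± 0.29 (adjusted p = 0.730) and Fzd10 by -0.39 ± 0.15 (adjusted p = 0.735). Rspo2 differed by -0.79 ± 0.34 (adjusted p = 0.819).

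Single arrays often gave the highest or lowest value of their genotype among the members. Heterozygous replicate 1 gave the highest heterozygous value for 19 of 41 members and the lowest for 9. The high ones included Wnt3a, Wnt5a, Wnt5b, Wnt8a, Wnt10a, Rspo3, Dkk1 and Lef1, and its Wnt5a and Wnt5b values, 1.32 and 1.73, were the highest of all 12 arrays. Tail bud genes were high there as well, with T at 1.101 against -2.26 to -1.31 elsewhere and Cdx2 at 1.20 against -2.08 to -0.81. Homozygous replicate 1 gave the lowest homozygous value for 22 of 41 members, among them Rspo2, Wnt3, Wnt3a, Wnt7a, Wnt7b, Wnt8b, Dkk2 and Fzd10, and it also had the highest yolk sac sum. Without this array the Rspo2 difference from wild type was -1.43 (limma, adjusted p = 0.0779) and Rspo3 had -1.45 (adjusted p = 0.165). Heterozygous replicate 3 gave the lowest heterozygous value for 16 members, and homozygous replicate 4 the highest homozygous value for 14. Such counts were not made over all genes, so whether they are particular to the module was not tested.

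**Figure D4:**
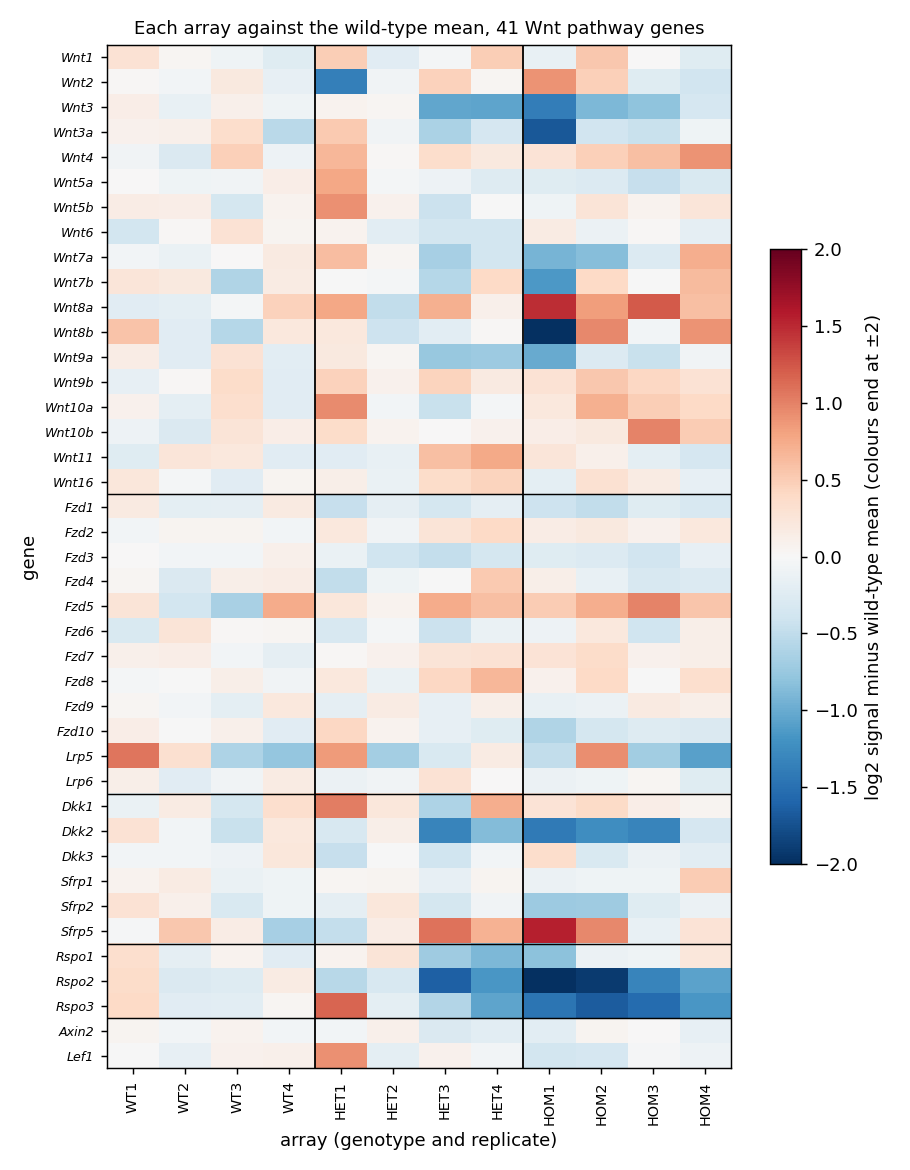
Scaled log2 signal of each tested Wnt module gene (rows, grouped as ligands, receptors, antagonists, R-spondins and intracellular genes) on each array (columns), minus the gene's wild-type mean; red is higher and blue lower, and colours end at a log2 difference of 2 either way. Rspo2 and Rspo3 are blue on all 4 homozygous arrays, Dkk2 on replicates 1 to 3 more than on 4, and heterozygous replicate 1 is red for Rspo3 and Lef1.

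For 8 members 2 probes were on the array, and the brighter probe was used above. The second probe had a homozygous minus wild-type difference of the other sign for Axin2 (0.25), Lrp6 (0.32), Wnt16 (-0.56) and Wnt8b (0.38), whose values above thus depend on the probe. The second probes of Fzd2 (0.44), Fzd5 (0.37), Fzd7 (0.17) and Wnt1 (0.00) had the same sign. No second probe passed the test. Rspo2, Rspo3, Dkk2 and Wnt8a rest on 1 probe each.

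Of 87 other genes of the pathway on the array, from secretion to planar polarity, 85 were tested, and Dkk4 and Msgn1 were too dim. In homozygotes against wild type 1 rose and 1 fell, or 2 of 85, where 1.37% of all genes passed; 44 were higher and 41 lower in value, with a median of 0.02. Tle2, a Groucho-type co-repressor that binds Lef1 and its relatives, read -3.46, -3.23, -3.18 and -3.50 in wild type and -2.84, -2.45, -2.41 and -2.87 in homozygotes. The arrays did not overlap, and Tle2 rose by 0.70 ± 0.13 on the log2 scale (limma, adjusted p = 0.0224). Cdx1, a caudal homeobox gene and Wnt target, read 0.26, 0.46, 0.40 and 0.40 in wild type and -0.20, -0.05, -0.63 and -0.89 in homozygotes. It fell by 0.82 ± 0.16 (adjusted p = 0.0339), again without overlap. Both calls ended with normexp background correction and without wild-type replicate 1, wild-type replicate 4 or homozygous replicate 3, each left out alone. The call of Tle2 also ended without homozygous replicate 2. That of Cdx1 also ended without wild-type replicate 2, wild-type replicate 3 or homozygous replicate 4. It ended too with no filter on dim probes and in a fit of only the 2 genotypes.

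The Lgr receptors, through which R-spondins can act, did not pass: Lgr4 had -0.33 ± 0.14 (limma, adjusted p = 0.270), Lgr5 -0.21 ± 0.14 and Lgr6 -0.23 ± 0.37. Beta-catenin itself (Ctnnb1) had 0.10 ± 0.10. In heterozygotes against wild type none of the 85 passed, and 10 had an unadjusted p under 0.05, or 11.8%, against 15.3% of all genes. In homozygotes against heterozygotes none passed either, and 9 had an unadjusted p under 0.05, or 10.6%, against 6.03% of all genes.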

How the data were processed

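Arrays were Agilent 4x44K mouse arrays in 1 colour. The deposited intensity values are the processed signal of Agilent Feature Extraction 10.7.3.1, corrected for background within each array but not scaled between arrays, per the file headers; the submitters' processing notes also name limma. The deposited value table was identical. Control spots (1377) and outlier spots (171 to 386 per array) were dropped, no spot was saturated, and log2 signal minus the array's 75th percentile was averaged over the spots of a probe. Of 39429 probes, 26049 were named by RefSeq accession (GRCm38.p6 table, used for names and neighbours only). The brightest probe stood for a gene, tested where well above background on all arrays of 1 genotype or more. limma 3.58.1 (R 4.3.3) fitted all 12 arrays, with Benjamini-Hochberg adjustment over all 22573 genes at 0.05, and was tested on simulated data; figures used matplotlib 3.10.9. Each member past the threshold and the 3 with the smallest p in each comparison are given on every array, as are, chosen after their values were seen, Dkk2, Wnt3 and Rspo1. Members, pathway and marker lists were chosen with earlier results of these data known. Alternatives were 2 normalizations, the value table, filters, probe choice, blocks, variance models, weights and leaving out each array. The 4 arrays per genotype limit the precision.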

Additional observations from a re-analysis of the deposited data

Results flagged for a closer look

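In 6 of the 123 genotype groups checked (41 members, 4 arrays in each of 3 genotypes), 1 array lay far from the other 3; chance alone flags about 5% of such groups, here 6.15. Wild-type replicate 3 was low for Wnt5b (0.47, the nearest at 0.89) and for Wnt7b (-4.55, the nearest at -3.77). Homozygous replicate 4 was high for Dkk2 (-3.94, the nearest at -4.86) and for Sfrp1 (0.46, the nearest at -0.12). Wild-type replicate 4 was high for Dkk3 (-0.37, the nearest at -0.65), and heterozygous replicate 3 was low for Sfrp1 (-0.20, the nearest at 0.01).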

How the results depend on the processing

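In homozygotes against wild type 1 member was called. The count was 0 with no filter on dim probes and 2 in a fit of only the 2 genotypes (Rspo2 and Rspo3). It was 0 to 2 when each array was left out in turn, the highest without heterozygous replicate 1 or 4. With array position as a block the homozygous minus wild-type difference rests on wild-type replicate 3 alone, so counts from that fit are not given. With the number in the sample titles as a replicate block the count was 0, with Rspo2 at -1.49 (adjusted p = 0.235), and 17 of all genes passed. The titles do not say what that number is, and same-numbered arrays of different genotypes deviated from their group means with correlations of -0.06 to 0.06 for numbers 50 and 53 and of 0.18 for wild-type and heterozygous replicate 1 (number 39). Not every pair was above 0.1, so the number was not taken to pair samples. Same-numbered arrays within a genotype were not compared, so the check cannot settle whether the number marks related embryos. The other comparisons gave 0 members under all 25 alternatives. The 2 other pathway genes called became 0 with normexp background correction and with title number as a replicate block. They became 1 with no filter, and 0 to 3 when arrays were left out in turn. Normexp shifted the median of all genes from 0.01 to -0.10; against that shift Wnt8a, at 1.04 in the main setting, stood at -0.093. Counts over all genes, 309, were 93 with normexp, 186 with no filter and 505 with array weights. They were 114 and 116 without wild-type replicates 1 and 4. They were 152, 139 and 142 without homozygous replicates 1, 2 and 3. The causes were not tested. The homozygous minus wild-type difference kept its sign under all 25 alternatives for 21 of 41 members, Rspo2, Rspo3, Dkk2 and Wnt3 among them. Dim probes such as that of Wnt8a, above background on 9 of 12 arrays, limit what can be said of their levels.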
